A study of Mus musculus with 52 samples.

Results

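The genes described here are 10 transcripts used to recognise mural cells, the pericytes and smooth muscle cells that wrap blood vessels: Pdgfrb, Rgs5, Cspg4, Kcnj8, Abcc9, Vtn, Notch3, Anpep, Higd1b and Acta2. They were taken by name, with no threshold on their values, out of 33099 genes with a read in some RNA library. Their levels were followed in 40 RNA-seq libraries from adult mice, in 20 groups of 2 replicates, and their promoters in 12 ATAC-seq libraries. The question was in which cell fraction and tissue mural RNA was found, and whether it differed when beta-catenin signaling was raised in endothelial cells (ECs).

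In 24 of the RNA libraries, cells dissociated with papain from the cerebellum, a tissue with a blood-brain barrier (BBB), and from the anterior and posterior pituitary, which lack one, were sorted by FACS into GFP-positive ECs and GFP-negative cells. The GFP came from a Tie2-GFP transgene. WT animals carried only that transgene as far as the labels say. The stabilized animals also carried Pdgfb-CreER and a Ctnnb1 flex3 allele, from which Cre removes the exon that targets beta-catenin for degradation, and received 100 µg of 4-hydroxytamoxifen at P10, so that Cre and drug cannot be told apart from genotype. Each pituitary preparation pooled 20 to 30 male mice aged P30 to P90. In the other 16 libraries, ribosomes tagged by RiboTag after Pdgfb-CreER recombination were pulled down from the cortex and the choroid plexus of mice aged 6 to 8 weeks (bound), beside the RNA of the whole homogenate (input). There both genotypes carried RiboTag and Pdgfb-CreER and received the drug, and choroid plexi of 3 to 4 animals were pooled. The study describes its replicates as biological. The p-values rest on the spread between the 2 samples of a group, pooled over all groups fitted together.

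Mural cells are recruited and kept on the vessel by signals from ECs. PDGF-B from ECs binds the receptor encoded by Pdgfrb on pericytes, and Notch3 is the Notch receptor of smooth muscle and pericytes. Kcnj8 and Abcc9 encode the pore (Kir6.1) and the regulatory subunit (SUR2) of the vascular ATP-sensitive potassium channel (K-ATP), which sets contractile tone, and Rgs5 encodes a regulator that shortens G protein signaling and is among the most abundant transcripts of brain pericytes. Vtn encodes vitronectin, a protein of the matrix, Cspg4 the proteoglycan NG2, Anpep aminopeptidase N (CD13) and Acta2 the actin of contractile smooth muscle. Higd1b is a mitochondrial protein gene used as a pericyte marker.

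In GRCm38 the K-ATP genes are neighbours on chromosome 6 and are transcribed in the same direction: Kcnj8 (ENSMUSG00000030247) at chr6:142564837-142571614 on the minus strand, and Abcc9 (ENSMUSG00000030249) at chr6:142587862-142702315, whose 3′ end is 16.2 kb before the start of Kcnj8. Rgs5 (ENSMUSG00000026678) is at chr1:169655501-169695813 on the plus strand. Further members are Anpep at chr7:79821803-79861059, Cspg4 at chr9:56865033-56899870, Vtn at chr11:78499091-78502324, Higd1b at chr11:102835849-102838040, Notch3 at chr17:32120820-32166852, Pdgfrb at chr18:61045150-61085061 and Acta2 at chr19:34241090-34255590.

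The bases directly before the start of Rgs5, Kcnj8 and Abcc9 are shown. The last 2 carried an ATAC peak in every anterior pituitary library. Rgs5, the most abundant member in WT cerebellar GFP-positive cells, carried none near its start in any library. The stretches shown are the RefSeq promoter sequences of GRCm38.p6, read 5′ to 3′ in the direction of transcription. Capitals mark bases covered by a peak in all 4 anterior pituitary libraries. The stretches are chr1:169655251-169655500 for Rgs5, chr6:142571615-142571864 for Kcnj8 and chr6:142702316-142702524 for Abcc9.

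Rgs5: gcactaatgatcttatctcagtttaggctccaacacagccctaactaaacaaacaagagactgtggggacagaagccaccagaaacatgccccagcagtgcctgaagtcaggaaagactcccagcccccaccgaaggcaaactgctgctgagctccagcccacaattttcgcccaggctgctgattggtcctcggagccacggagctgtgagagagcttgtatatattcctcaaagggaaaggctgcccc

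Kcnj8: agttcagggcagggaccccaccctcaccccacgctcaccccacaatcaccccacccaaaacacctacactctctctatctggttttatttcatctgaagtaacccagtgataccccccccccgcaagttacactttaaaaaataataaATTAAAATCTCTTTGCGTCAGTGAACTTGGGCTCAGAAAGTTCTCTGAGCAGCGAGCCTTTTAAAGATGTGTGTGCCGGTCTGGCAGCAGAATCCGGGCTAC

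Abcc9: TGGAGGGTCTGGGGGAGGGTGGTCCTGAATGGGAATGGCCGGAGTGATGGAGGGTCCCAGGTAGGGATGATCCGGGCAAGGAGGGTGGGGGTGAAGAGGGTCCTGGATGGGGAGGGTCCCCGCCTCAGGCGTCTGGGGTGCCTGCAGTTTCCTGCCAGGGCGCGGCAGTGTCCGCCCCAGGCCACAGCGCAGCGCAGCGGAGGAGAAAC

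In Rgs5 no base was covered, in Kcnj8 the 102 bases nearest the start were, and in Abcc9 all 209 were. In windows from 250 bases before to 50 after a start, the core motif of the TCF/LEF factors that act with beta-catenin (CTTTGA, both strands) occurred in 16% of 32851 promoters. Of the 8 members with a RefSeq promoter, only Rgs5 held it, 20 bases before its start. The ETS core (GGAA, both strands) occurred in 96.0% of promoters and the CArG box of SRF in 1.63%, and no member held the latter. A match describes letters in a window and no binding.

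Sorted libraries held 12157485 to 37529274 reads assigned to transcripts and RiboTag libraries 6409013 to 21399125. The GFP sort separated ECs: the summed level of 10 endothelial genes was 1943 to 7252 in GFP-positive and 3.28 to 35.02 in GFP-negative libraries, in TPM, the abundance of a transcript scaled for its length and for the depth of the library. Axin2, a target of beta-catenin, was higher in both stabilized replicates than in both WT replicates in GFP-positive cells of each tissue and in bound RNA of each tissue (posterior pituitary GFP-positive cells, 26.7 and 28.1 against 0.356 and 0.405 TPM). Ctnnb1 itself, summed over the gene, does not check an excised exon. In 1 stabilized GFP-positive library (anterior pituitary, replicate 2) the title names the anterior and another label the posterior lobe. It was used as anterior, and values without it are given below. From the tables, fewer mural cells and less RNA per mural cell cannot be told apart.

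In WT animals the summed level of the 10 members was higher in GFP-positive than in GFP-negative cells and was highest in the cerebellum, while single members did not all follow it. The 10 members summed to 1057 and 878 TPM in WT cerebellar GFP-positive cells (replicates 1 and 2) and to 237 and 123 TPM in GFP-negative cells. In the anterior pituitary the sums were 191 and 227 against 38.6 and 28.5 TPM, and in the posterior pituitary 154 and 84.2 against 18.5 and 9.55 TPM. In all 3 WT tissues the GFP-positive and GFP-negative sums did not overlap. The order of the lobes rests on Kcnj8: in a sum without it, chosen after seeing the data, the posterior pituitary had the higher mean (111 ± 47.6 against 71.3 ± 10.1 TPM, SD, n = 2), with overlapping libraries. In stabilized animals the sums were 706 and 579 against 288 and 98.2 TPM in the cerebellum and 262 and 188 against 77.4 and 63.9 TPM in the anterior pituitary, whereas in the posterior pituitary they overlapped (59.1 and 42.6 against 47.6 and 17.9 TPM). Relative to the 10 endothelial genes, the mural sum was 0.255 and 0.264 in WT cerebellar GFP-positive cells, 0.0575 and 0.0457 in the anterior and 0.0212 and 0.0161 in the posterior pituitary. Of the anterior sums Kcnj8 alone was 127 and 148 TPM, and 6 of 10 members were under 1 TPM in both libraries. Without Kcnj8 the sums were 64.2 and 78.5 TPM in the anterior and 145 and 77.7 TPM in the posterior pituitary. The endothelial sums were 3316 and 4962 TPM in the anterior and 7252 and 5240 TPM in the posterior pituitary.

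**Figure D1:**
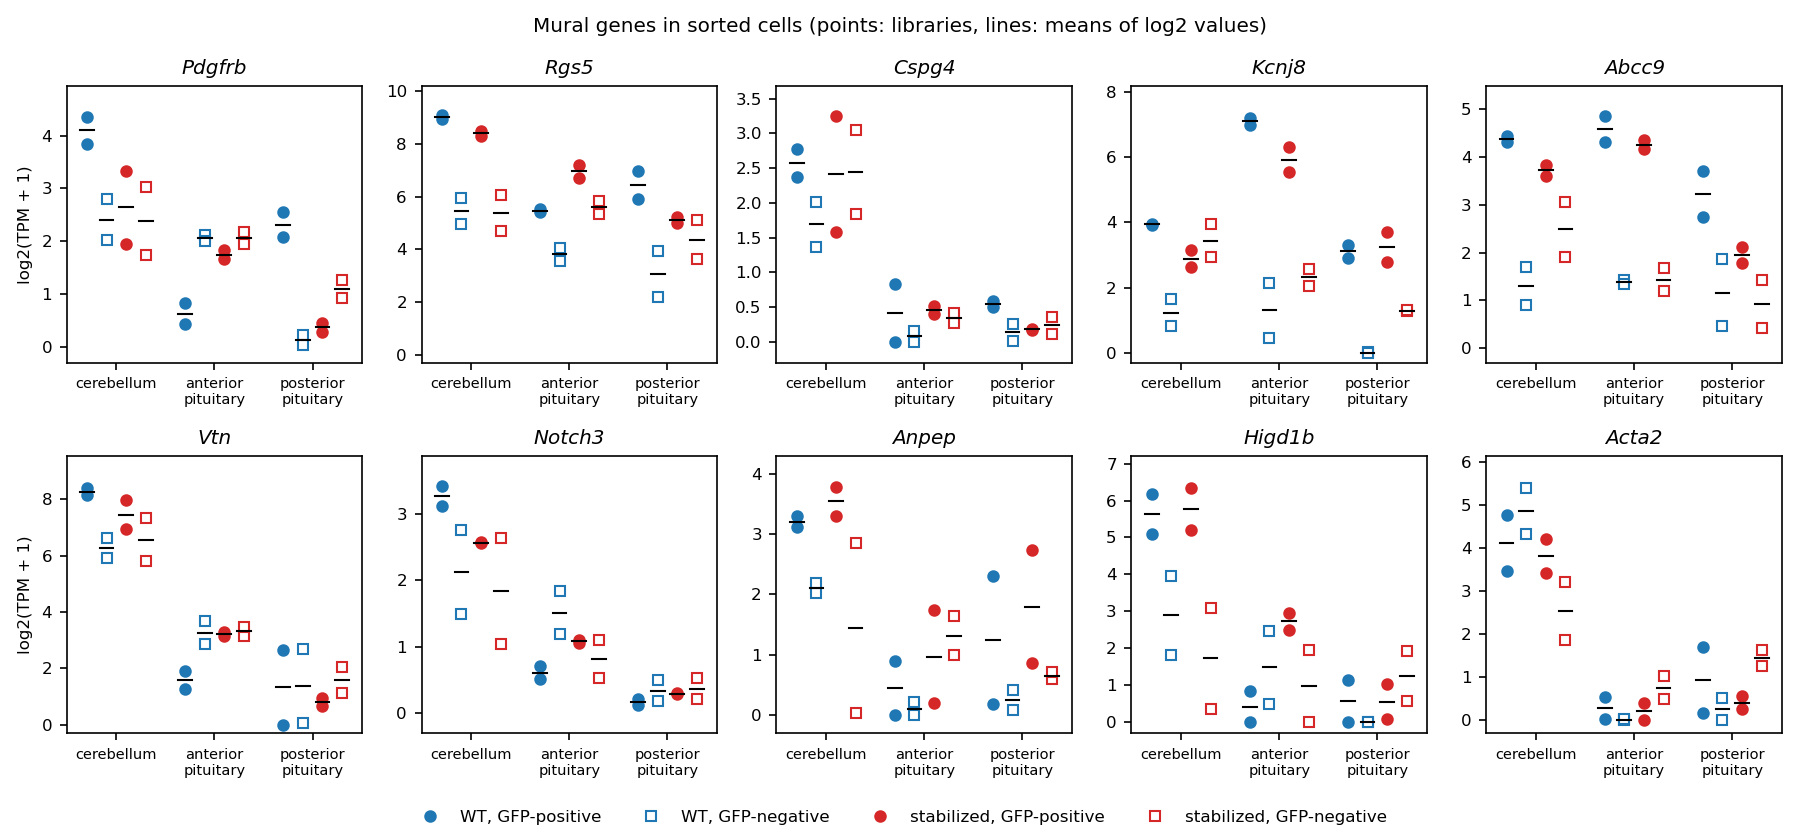
Level of each member in the 24 sorted libraries as log2(TPM + 1). Each point is 1 library (filled circles GFP-positive, open squares GFP-negative, blue WT, red stabilized) and each line the mean of 2 log2 values; Rgs5 and Vtn are highest in the cerebellum, whereas Kcnj8 is highest in anterior pituitary GFP-positive cells (127 and 148 TPM in WT).

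Rgs5 made up 51.8% and 55.5% of the 10-member sum in WT cerebellar and 80.2% and 70.6% in posterior pituitary GFP-positive cells. In the anterior pituitary, where Kcnj8 was the most abundant member, Rgs5 made up 21.6% and 20.0%. It stood at 548 and 488 TPM (518 ± 42.7, SD, n = 2) in WT cerebellar GFP-positive cells and at 60.7 and 30.1 TPM in GFP-negative cells, a log2 fold change of 3.42 ± 0.43 (SE) with an adjusted p of 3.7e-05 (edgeR quasi-likelihood test, Benjamini-Hochberg adjustment over 21343 genes). Every GFP-positive library was above every GFP-negative one. The same held in the WT anterior pituitary, with 41.2 and 45.2 against 15.7 and 10.9 TPM (log2 fold change 1.66, adjusted p = 0.0101), and in the WT posterior pituitary, with 123 and 59.4 against 14.3 and 3.61 TPM (4.41, adjusted p = 2.5e-06). The call in the anterior pituitary was lost without WT GFP-negative replicate 2 (adjusted p = 0.0788).

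The 2 subunits of the K-ATP channel rose together in GFP-positive cells of all 3 WT tissues. Kcnj8 stood at 14.2 and 14.6 TPM in cerebellar GFP-positive against 2.13 and 0.752 TPM in GFP-negative cells (log2 fold change 3.36 ± 0.68, adjusted p = 0.00286). In the anterior pituitary it reached 127 and 148 TPM in GFP-positive against 0.373 and 3.44 TPM in GFP-negative cells (6.33 ± 0.78, adjusted p = 3.1e-05). Its highest levels in the series were thus in anterior pituitary ECs, where Rgs5, Vtn and Pdgfrb were far below their cerebellar levels. In the posterior pituitary Kcnj8 stood at 8.91 and 6.54 TPM in GFP-positive cells, and a single read was counted in GFP-negative cells against 804, a normalized ratio of 918 with an exact 95% counting interval from 164 to 36318. The interval covers counting error only.

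Abcc9 followed the same fractions at a narrower range of levels. It stood at 18.9 and 20.8 TPM in cerebellar, 19.0 and 28.1 TPM in anterior pituitary and 5.69 and 12.0 TPM in posterior pituitary GFP-positive cells, against 2.27 and 0.872, 1.67 and 1.54, and 2.64 and 0.371 TPM in GFP-negative cells. The fractions did not overlap in any WT tissue. Log2 fold changes were 3.49, 3.93 and 4.87, with adjusted p of 8.2e-04, 3.1e-04 and 4.4e-05. In the posterior pituitary the TPM ratio was 5.89, and with an offset for transcript length the adjusted p was 0.0651.

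Pdgfrb, the PDGF receptor, went in different directions by tissue. In the WT anterior pituitary it was lower in GFP-positive cells, 0.347 and 0.764 against 3.33 and 3.02 TPM (log2 fold change -2.66 ± 0.71, adjusted p = 0.0184). Markers (10) of fibroblasts, a cell type that can also make Pdgfrb, were lower in the same libraries, with sums of 32.0 and 50.6 against 212 and 241 TPM, and their part was not tested. In the WT posterior pituitary Pdgfrb was higher, 4.86 and 3.23 against 0.168 and 0.0191 TPM (4.95 ± 0.79, adjusted p = 2.4e-04). The fibroblast sum was lower there too, 48.1 and 20.8 against 179 and 185 TPM. In the cerebellum its levels of 19.5 and 13.3 against 5.98 and 3.05 TPM did not overlap but missed the threshold (1.63, adjusted p = 0.150). The anterior call was lost without GFP-positive replicate 1 (adjusted p = 0.164) or GFP-negative replicate 1 (0.0773), and the posterior call reached 0.0897 in 1 alternative setting.

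The matrix, surface and contractile members were not called between fractions in any WT sorted tissue by the edgeR test as described. In the cerebellum Vtn stood at 335 and 279 against 98.1 and 59.8 TPM, Higd1b at 71.4 and 33.0 against 14.5 and 2.52 TPM, Notch3 at 9.67 and 7.66 against 5.78 and 1.80 TPM and Anpep at 8.83 and 7.69 against 3.05 and 3.54 TPM. Cspg4 stood at 5.83 and 4.19 against 3.04 and 1.58 TPM. Each of these stood higher in GFP-positive cells without overlap on 2 libraries a fraction, for which no share of all genes is given. Acta2, the smooth muscle actin, was the exception, with 26.1 and 10.1 TPM in GFP-positive and 41.1 and 19.0 TPM in GFP-negative cells, which overlapped. In the WT anterior pituitary the levels of some lay the other way. Vtn stood there at 2.76 and 1.39 TPM in GFP-positive against 11.7 and 6.31 TPM in GFP-negative cells (log2 fold change -3.22, adjusted p = 0.134), and Notch3 at 0.421 and 0.636 against 1.28 and 2.58 TPM (adjusted p = 0.0795), neither overlapping. Some of them were called under other settings, for which no share of all genes is given. With low counts kept, and with only the compared groups fitted, Vtn and Pdgfrb were called higher in cerebellar GFP-positive cells (adjusted p from 0.00767 to 0.0393). With DESeq2, and with low counts kept, Vtn and Notch3 were called lower and Acta2, with at most 1 read in a group, higher in anterior pituitary GFP-positive cells (adjusted p up to 0.0474).

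Counted over the list, 3 of 10 members rose and 0 fell between WT cerebellar fractions, where 4.46% of all 21343 genes rose and 6.89% fell. The median member log2 fold change was 1.68, against -0.12 over all genes. In the WT anterior pituitary 3 members rose and 1 fell (background 5.46% and 5.87%), with 5 positive and 5 negative log2 fold changes, and in the WT posterior pituitary 4 rose and 0 fell (7.07% and 7.45%). In the posterior pituitary the median was 3.60, or 2.65 with Kcnj8 and Higd1b, which had at most 1 read in a group, set at their count ratio or its lower bound.

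In stabilized animals Rgs5 or the K-ATP genes were the members called between fractions by the edgeR test as described. In the cerebellum 1 of 10 members rose, Rgs5 (363 and 318 against 66.1 and 25.1 TPM, log2 fold change 2.22, adjusted p = 8.0e-04), where 7.26% of genes rose and 9.92% fell. In the anterior pituitary 2 rose (5.14% of genes rose and 3.15% fell), Kcnj8 with 77.8 and 46.1 against 3.16 and 4.95 TPM (3.68) and Abcc9 with 19.48 and 16.99 against 2.18 and 1.28 TPM (2.87). Both were also called without the library with the conflicting label, with log2 fold changes of 3.96 and 2.88. Rgs5 stood there at 147 and 104 against 56.2 and 39.7 TPM, which did not overlap but missed the threshold (1.11, adjusted p = 0.103). It was called higher under 4 other settings (DESeq2, low counts kept, a replicate block and only the compared groups fitted), with adjusted p from 0.0173 to 0.0498. Of the members in the posterior pituitary 1 rose (5.49% of genes rose and 5.04% fell), Kcnj8 with 11.9 and 5.84 against 1.44 and 1.47 TPM (2.58, adjusted p = 0.0147). Without replicate 1 of either fraction that call was lost (adjusted p up to 0.112). With same-numbered fractions taken as 1 preparation, Pdgfrb was also called there, lower in GFP-positive cells (-2.24, adjusted p = 0.0392). It was likewise called with DESeq2, RLE normalization, low counts kept, a replicate block and only the compared groups fitted (adjusted p from 0.00425 to 0.0427).

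**Figure D2:**
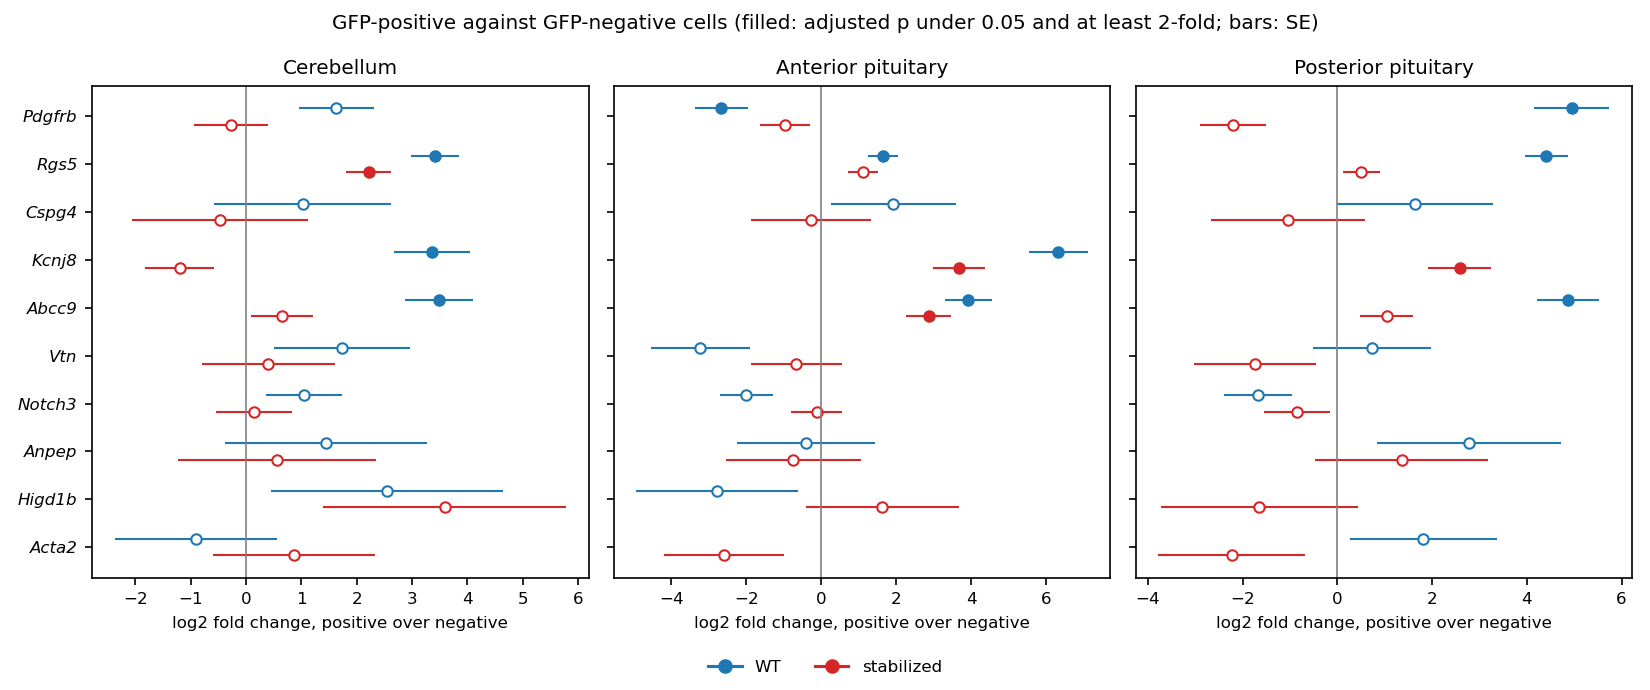
Log2 fold change of each member between GFP-positive and GFP-negative cells in 3 tissues, blue for WT and red for stabilized, with bars for 1 SE and filled points for genes called at an adjusted p under 0.05 and at least 2-fold. Members with at most 1 read in a group are not drawn (Acta2 in the WT anterior pituitary, Kcnj8 and Higd1b in the WT posterior pituitary); Kcnj8 and Abcc9 are called in both genotypes of the anterior pituitary.

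Other mural genes were called between fractions in both directions. Of 16 further pericyte genes, 15 could be tested, and 1 rose and 0 fell between WT cerebellar fractions (4.46% and 6.89% of all genes), Art3 (23.1 and 21.1 against 1.29 and 1.44 TPM, log2 fold change 4.07). In the WT anterior pituitary 2 rose and 2 fell (5.46% and 5.87%): Art3 and Mcam, an adhesion molecule that ECs also make, rose, while Gucy1a1 and Gucy1b1, the subunits of the nitric oxide receptor, fell. In the WT posterior pituitary 3 rose and 2 fell (7.07% and 7.45%): Art3, Mcam and Des, the muscle intermediate filament, rose, Des only to 0.157 and 0.360 TPM, and Slc6a20a and Gucy1b1 fell. Of 14 further smooth muscle genes, 13 could be tested. Their summed levels overlapped between WT cerebellar fractions (371 and 222 against 408 and 93.1 TPM), and 2 rose there, the actin-associated Smtn (47.7 and 65.8 against 7.09 and 1.95 TPM) and the myosin kinase Mylk (11.0 and 6.21 against 2.54 and 1.49 TPM). Smtn also rose in both lobes of the WT pituitary, which is another pattern than that of Acta2.

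Some genes for signals between ECs and mural cells, several of them endothelial, rose in the GFP-positive fraction, and a few fell in the pituitary. Of 17 such genes, 8 rose and 0 fell between WT cerebellar fractions (4.46% and 6.89% of all genes), 7 rose and 2 fell in the anterior (5.46% and 5.87%) and 9 rose and 2 fell in the posterior pituitary (7.07% and 7.45%). Pdgfb, the ligand of Pdgfrb, stood at 60.4 and 41.1 TPM in WT cerebellar GFP-positive against 3.19 and 1.64 TPM in GFP-negative cells (log2 fold change 5.41). Tek (the angiopoietin receptor, also an endothelial marker), Edn1 (endothelin), Eng and Dll4 had the other largest changes.

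Markers of other cells that share genes with mural cells were measured beside these values. The WT cerebellar GFP-negative replicates 1 and 2 differed in composition. Choroid plexus epithelial genes (10) summed to 59.3 and 4849 TPM there, erythrocyte genes (5) to 20722 and 237 TPM and astrocyte genes (10) to 8474 and 2477 TPM. The fibroblast genes summed to 26.8 and 16.3 TPM in WT cerebellar GFP-positive against 77.3 and 128 TPM in GFP-negative cells. Of these genes 4 fell and 0 rose (6.89% and 4.46% of all genes). Oligodendrocyte precursor genes (10), a cell type that makes Cspg4, summed to 3.89 and 1.60 against 545 and 212 TPM. Among fibroblast genes Lum stood at 0 and 0.00932 TPM in those GFP-positive cells. Pituitary hormone cell genes (10) summed to 44198 and 61010 TPM in WT anterior pituitary GFP-negative cells and to 6881 and 4418 TPM in GFP-positive cells. In WT GFP-positive cells of the posterior pituitary they summed to 3377 and 478 TPM, and in those of the cerebellum to 36.5 and 32.8 TPM. The part of these cells in the fraction differences was not tested.

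Between tissues, the called members were higher in the cerebellum in WT GFP-positive cells, with Kcnj8 as the exception. Against the anterior pituitary, 4 of 10 members were higher and 1 lower in the cerebellum (3% of 17915 genes were higher and 2.26% lower). The median member log2 difference was 4.72, against 0 over all genes. Among the called members Vtn differed most, with 335 and 279 against 2.76 and 1.39 TPM (log2 fold change 7.65 ± 1.32, adjusted p = 0.00325), followed by Pdgfrb (5.08), Notch3 (4.15) and Rgs5 (3.47). Values of like size missed the threshold for Higd1b (7.05, adjusted p = 0.0516), Acta2 (6.26, 0.0790), Anpep (6.03, 0.0778) and Cspg4 (4.37, 0.174). Kcnj8 was lower in the cerebellum, 14.2 and 14.6 against 127 and 148 TPM (-2.96 ± 0.40, adjusted p = 5.9e-04). These 5 calls held under each alternative setting, with adjusted p of at most 0.0113. Abcc9 stood at 18.9 and 20.8 against 19.0 and 28.1 TPM, which overlapped.

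Against the posterior pituitary, 4 of 10 members were higher in the cerebellum and 0 lower (2.3% of genes were higher and 2.1% lower). Notch3 stood at 9.67 and 7.66 against 0.155 and 0.0890 TPM (log2 fold change 6.56, adjusted p = 5.8e-06). Vtn (6.15), Rgs5 (2.62) and Pdgfrb (2.48) were also called. The median member log2 difference was 3.82, against 0 over all genes. Vtn was not called in every alternative (adjusted p up to 0.170).

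Between the lobes of the pituitary, 2 members were higher in the anterior lobe and 1 lower (0.34% of genes were higher and 0.653% lower). Kcnj8 stood at 127 and 148 against 8.91 and 6.54 TPM (log2 fold change 4.43 ± 0.43, adjusted p = 2.4e-04), called in every alternative. With a transcript length offset, or with only these groups fitted, it was the only member called. Notch3 was higher at low levels, 0.421 and 0.636 against 0.155 and 0.0890 TPM (2.41), and Pdgfrb lower (-2.60), a call lost without anterior replicate 1 (adjusted p = 0.142). The order of Kcnj8 in WT GFP-positive cells was anterior pituitary, cerebellum, posterior pituitary. The last 2 did not overlap but were not called apart (log2 fold change 1.47, adjusted p = 0.0518). They were called apart with DESeq2, with low counts kept and with a replicate block (adjusted p from 9.96e-04 to 0.0478). The order of Rgs5 was cerebellum, posterior and anterior pituitary, of which the lobes were not called apart.

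In WT GFP-negative cells 2 of 10 members were higher in the cerebellum than in the anterior pituitary and 0 lower (5.5% of 19612 genes were higher and 3.27% lower), Rgs5 (log2 fold change 1.67, adjusted p = 0.0430, lost without cerebellar replicate 1 or anterior replicate 2) and Acta2, for which 5252 reads stood against 1 (ratio 6176, 95% counting interval 1108 to 243995). Levels that overlapped between these tissues included those of Kcnj8 (2.13 and 0.752 against 0.373 and 3.44 TPM) and Abcc9 (2.27 and 0.872 against 1.67 and 1.54 TPM). Against the posterior pituitary 7 of 10 were higher (6.37% higher and 3.5% lower): Pdgfrb, Rgs5, Kcnj8, Abcc9, Vtn, Notch3 and Acta2. Of these, Abcc9 overlapped between tissues in TPM (2.27 and 0.872 against 2.64 and 0.371), and only 1 was called when just the compared groups were fitted. Between the lobes, Pdgfrb was higher in the anterior pituitary (3.33 and 3.02 against 0.168 and 0.0191 TPM, log2 fold change 5.03), and Kcnj8 counts were 314 against 1 (0.877% of genes were higher and 0.79% lower). Neither was called when just these groups were fitted (adjusted p 0.193 and 0.378). Acta2 was at or under 2.25 TPM in every WT pituitary library of either fraction.

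Pericyte genes outside the list differed by gene. In WT GFP-positive cells 6 of 15 tested were higher in the cerebellum than in the anterior pituitary and 0 lower (3% and 2.26% of all genes), and against the posterior pituitary 3 were higher and 1, Mcam, lower (2.3% and 2.1%). The 16 genes summed to 303 and 213 TPM in the posterior pituitary, 221 and 165 TPM in the cerebellum and 167 and 75.8 TPM in the anterior pituitary, so that the posterior sum overlapped the cerebellar one and had the higher mean. Mcam made up 102 and 137 TPM of the posterior sum. Atp13a5, a transporter gene of brain pericytes, stood at 53.8 and 30.9 TPM and was listed at 0 in both lobes of the pituitary. Slc6a20a stood at 11.7 and 14.6 TPM and was also listed at 0 in both lobes. Of the smooth muscle genes, Myh11 (16.9 and 5.48 against 0.436 and 0.0176 TPM, log2 fold change 5.51), Myl9 (3.67) and Mylk (1.90) were higher in the cerebellum, and Smtn was lower (-1.28).

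Few members differed by genotype in GFP-positive cells. In the cerebellum 0 of 10 were called by edgeR (0.067% of genes rose and 0.581% fell), with 3 at an unadjusted p under 0.05 and 0 calls with DESeq2. The 9 lower values included Pdgfrb, 9.04 and 2.88 in stabilized against 19.5 and 13.3 TPM in WT (log2 fold change -1.40, adjusted p = 0.336), and Kcnj8, 5.17 and 7.90 against 14.2 and 14.6 TPM (-1.17, adjusted p = 0.309). Neither of these overlapped between genotypes. Fibroblast genes summed to 5.38 and 0.115 in these stabilized against 26.8 and 16.3 TPM in WT libraries, and their part in the differences was not tested.

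In the anterior pituitary 1 of 10 members rose (0.441% of 17915 genes rose and 0.0167% fell). Rgs5 stood at 147 and 104 TPM in stabilized against 41.2 and 45.2 TPM in WT GFP-positive cells (log2 fold change 1.41 ± 0.25, adjusted p = 0.0257). Without the library with the conflicting label the log2 fold change was 1.47 (adjusted p = 0.0154). Without either WT replicate the call was lost (adjusted p 0.120 and 0.119), as it was with a transcript length offset (0.0922). Pdgfrb, with 2.56 and 2.16 against 0.347 and 0.764 TPM, did not overlap but missed the threshold (2.31, adjusted p = 0.0806). It was called higher with DESeq2 (adjusted p = 8.4e-04) and with low counts kept (4.7e-05). Kcnj8 stood at 77.8 and 46.1 against 127 and 148 TPM (-0.99, adjusted p = 0.579). Microglia and macrophage genes (10) summed to 201 and 305 TPM in these stabilized against 44.6 and 38.0 TPM in WT libraries, and their part in the differences was not tested.

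Among posterior pituitary GFP-positive cells 1 member rose (1.25% of genes) and 1 fell (0.541%). Pdgfrb fell from 4.86 and 3.23 to 0.368 and 0.211 TPM (log2 fold change -2.52 ± 0.50, adjusted p = 0.0270). Notch3 rose from 0.155 and 0.0890 to 0.215 and 0.231 TPM (1.94 ± 0.37, adjusted p = 0.0229), at levels under 1 TPM in every library and with a TPM ratio of 1.83, under 2-fold on that scale. Neither call held when only these groups were fitted (adjusted p 0.166 and 0.613) or without stabilized replicate 2 (0.125 and 0.102), and Notch3 was also lost without stabilized replicate 1 or WT replicate 2. Rgs5 stood at 36.2 and 30.9 against 123 and 59.4 TPM, which did not overlap (-0.78, adjusted p = 0.157). Kcnj8, at 11.9 and 5.84 against 8.91 and 6.54 TPM, overlapped in TPM and was not called by edgeR as described. It was called higher with DESeq2 (1.27, adjusted p = 0.0350) and with low counts kept (1.28, adjusted p = 0.0120). With low counts kept, Vtn (-1.66) and Abcc9 (-1.16) were called lower. Markers of other cells moved in the same libraries: the endothelial sum stood at 2234 and 1943 in stabilized against 7252 and 5240 TPM in WT, that of microglia and macrophages at 323 and 244 against 58.1 and 37.6 TPM and that of oligodendrocytes at 335 and 353 against 42.1 and 14.7 TPM. The 20 most abundant genes took 65.5% and 67.2% of TPM in these stabilized libraries, against 36.0% and 52.1% in WT. Their part in the TPM differences was not tested. Per endothelial sum, the 10 members stood at 0.0264 and 0.0219 against 0.0212 and 0.0161, while Pdgfrb stood at 0.0165% and 0.0109% against 0.0670% and 0.0617%. The part of these cells in the differences was not tested.

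**Figure D3:**
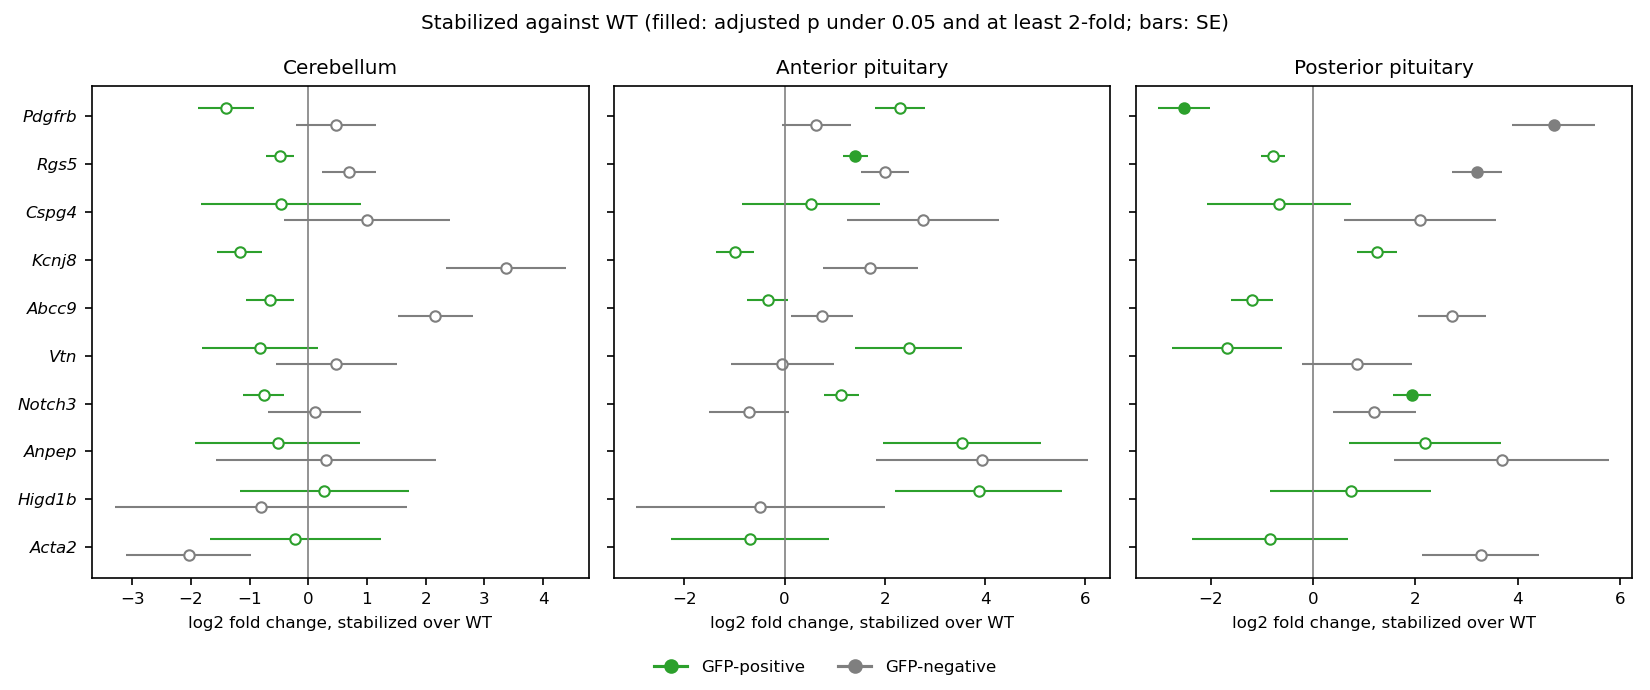
Log2 fold change of each member between stabilized and WT samples in GFP-positive (green) and GFP-negative (grey) cells of 3 tissues, with bars for 1 SE and filled points for called genes. Members with at most 1 read in a group are not drawn (Acta2 in anterior, Kcnj8 and Higd1b in posterior pituitary GFP-negative cells); in the posterior pituitary Pdgfrb is lower in GFP-positive and higher in GFP-negative cells.

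In GFP-negative cells, 0 members were called in the cerebellum (0.133% of genes rose and 0.627% fell) or the anterior pituitary (0.0357% and 0.0051%), where edgeR gave 2 and 2 members at an unadjusted p under 0.05 and DESeq2 called 2 and 2. In the cerebellum Kcnj8 stood at 14.4 and 6.64 in stabilized against 2.13 and 0.752 TPM in WT GFP-negative cells (log2 fold change 3.37, adjusted p = 0.211; DESeq2 adjusted p = 0.00605), and Abcc9 was the other DESeq2 call. In the anterior pituitary Rgs5 stood at 56.2 and 39.7 against 15.7 and 10.9 TPM (TPM ratio 3.61, adjusted p = 0.328; DESeq2 adjusted p = 0.00566), beside Acta2 with 1 read in WT. Neither Kcnj8 nor Rgs5 overlapped between genotypes. Markers of other cells moved in these libraries. In the cerebellum neuron genes (10) summed to 1144 and 1069 in stabilized against 555 and 475 TPM in WT. Fibroblast genes stood there at 55.5 and 15.5 against 77.3 and 128 TPM. In the anterior pituitary erythrocyte genes summed to 11642 and 4840 in stabilized against 814 and 1169 TPM in WT. Endothelial genes stood there at 10.8 and 6.41 against 31.1 and 31.7 TPM. In the posterior pituitary 3 rose (0.0867% of genes rose and 0.0459% fell). Pdgfrb stood at 1.39 and 0.899 in stabilized against 0.168 and 0.0191 TPM in WT cells (log2 fold change 4.70 ± 0.81, adjusted p = 0.0490). Rgs5 stood at 33.8 and 11.3 against 14.3 and 3.61 TPM, which overlapped in TPM (3.21, adjusted p = 0.0360), and Kcnj8 at 295 reads against 1 (ratio 372, 95% counting interval 66.2 to 14728; adjusted p = 0.0454). None of the 3 was called when only these groups were fitted or with a transcript length offset. Pituitary hormone cell genes summed to 27729 and 41433 TPM in stabilized and 54463 and 56538 TPM in WT posterior pituitary GFP-negative cells. In the same libraries fibroblast genes summed to 413 and 239 against 179 and 185 TPM and erythrocyte genes (5) to 2675 and 1147 against 190 and 9.37 TPM. The part of these cells in the differences was not tested.

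Differences between genotype effects were tested themselves, counting calls in either direction. The effect in posterior pituitary GFP-positive cells minus that in GFP-negative cells was called for 4 of 10 members (0.44% of 21343 genes), all negative: Pdgfrb (-7.15 ± 1.05, adjusted p = 0.00235), Rgs5 (-3.91), Kcnj8 (-6.96) and Abcc9 (-3.83). In TPM, Abcc9 did not stand higher in stabilized GFP-negative cells (1.70 and 0.349 against 2.64 and 0.371, overlapping), and its stabilized to WT ratio was 0.327 in GFP-positive and 0.681 in GFP-negative cells, a smaller difference. None of the 4 was called when only these groups were fitted. The same difference was called for 1 member in the cerebellum (0.431%), Kcnj8, and for 0 in the anterior pituitary (0.112%), the cortex (0.565%) and the choroid plexus (0.312%), where bound RNA was set against input. Between tissues, the genotype effect in GFP-positive cells differed for 2 members between cerebellum and anterior pituitary (0.519%), 1 between cerebellum and posterior pituitary (0.927%) and 2 between the lobes (0.128%), all among Pdgfrb, Rgs5 and Notch3. In GFP-negative cells the 3 tissue pairs gave 0 members (0.25%, 0.408% and 0.0051%). Between cortex and choroid plexus 0 members differed in bound RNA (2.15%) and 1, Rgs5, in input RNA (8.07%). In the 7 comparisons with 0 calls, edgeR gave 0 to 4 members at an unadjusted p under 0.05 and DESeq2 called 0 to 3.

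In RiboTag bound RNA, taken from ribosomes of Pdgfb-CreER cells, 0 of the 10 members were called higher than in input RNA by the edgeR test as described, without pairing. The endothelial genes summed to 496 to 1385 TPM in bound and 19.6 to 55.8 TPM in input RNA, while the 10 mural members summed to 12.3 to 52.9 TPM over both. RiboTag levels are given below as TMM-normalized CPM, which are counts scaled for depth and not for length, the scale on which the test compares samples.

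**Figure D4:**
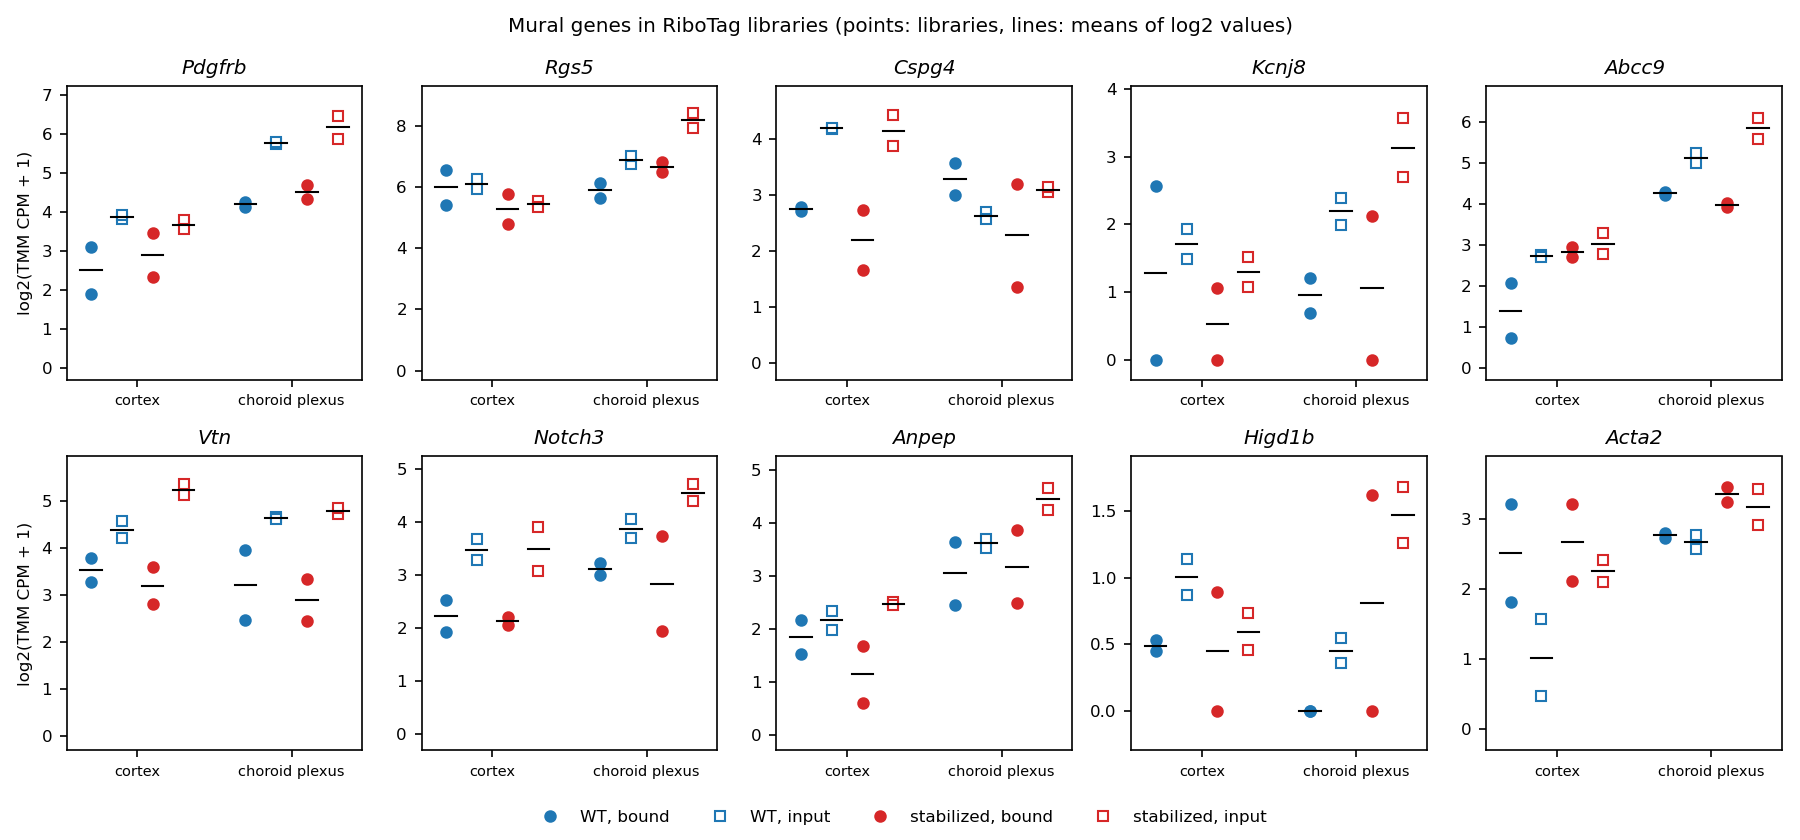
Level of each member in the 16 RiboTag libraries as log2(TMM-normalized CPM + 1). Each point is 1 library (filled circles bound, open squares input, blue WT, red stabilized) and each line the mean of 2 log2 values; Pdgfrb and Abcc9 are highest in choroid plexus input.

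Between bound and input RNA of the WT cortex 0 of 10 members were called by edgeR (7.46% of 18241 genes rose and 4.18% fell), with 5 at an unadjusted p under 0.05 and 3 called by DESeq2. Pdgfrb stood at 2.76 and 7.63 CPM in bound against 13.2 and 14.1 CPM in input RNA (log2 fold change -1.39, adjusted p = 0.0529). Rgs5 stood at 93.2 and 41.6 against 74.9 and 59.5 CPM, which overlapped. With same-numbered bound and input libraries taken as 1 preparation, 3 members were called, Pdgfrb (-1.54, adjusted p = 0.0316) and Abcc9 (-1.83, 0.0271) lower and Acta2 (2.33, 0.0358) higher in bound RNA. In the stabilized cortex 2 fell (10.1% of genes rose and 12.2% fell), Cspg4 with 5.71 and 2.15 against 20.6 and 13.7 CPM (-2.14, adjusted p = 0.0249) and Vtn with 5.96 and 11.1 against 39.9 and 33.7 CPM (-2.10, adjusted p = 0.0067). The call of Cspg4 was lost without input replicate 1 or bound replicate 2 (adjusted p 0.136 and 0.278), and that of Vtn without bound replicate 1 (0.149). In TPM the ratios of bound to input were 0.461 for Cspg4 and 0.493 for Vtn. Oligodendrocyte precursor genes summed to 20.2 and 19.3 in bound against 50.4 and 43.5 TPM in input RNA of the stabilized cortex. Their part in the Cspg4 difference was not tested.

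In the choroid plexus the receptor Pdgfrb fell in bound RNA of both genotypes. It stood at 18.2 and 16.4 against 52.3 and 54.5 CPM in WT (log2 fold change -1.62 ± 0.45, adjusted p = 0.0211), the only member called there (8.67% of genes rose and 6.64% fell). With the libraries taken as pairs, Vtn was also called (-1.51, adjusted p = 0.0441). In stabilized samples 4 fell (9.35% of genes rose and 8.48% fell). Pdgfrb stood at 19.1 and 24.9 against 87.2 and 57.3 CPM (-1.72), Rgs5 at 111 and 88.8 against 342 and 243 CPM (-1.55), Abcc9 at 15.2 and 14.1 against 67.4 and 47.2 CPM (-1.97) and Vtn at 9.08 and 4.47 against 25.2 and 27.7 CPM (-1.96). Notch3 missed the threshold (-1.58, adjusted p = 0.0648) but was also called lower with the libraries taken as pairs (-1.86, adjusted p = 0.0437), with DESeq2 and with low counts kept. No bound library reached an input library for these 4 genes on the CPM scale, whereas Vtn overlapped in TPM. In TPM the differences were smaller: the ratio of bound to input for Pdgfrb was 0.629 in WT and 0.519 in stabilized samples, and in stabilized samples it was 0.514 for Rgs5, 0.619 for Vtn and 0.441 for Abcc9, so that only Abcc9 was past 2-fold on that scale. These calls were close to the threshold: the WT call of Pdgfrb was lost without either input replicate or bound replicate 2 (adjusted p up to 0.0785), and without stabilized input replicate 1 a single member, Vtn, was called. Without stabilized bound replicate 1 Pdgfrb, without bound replicate 2 Rgs5 and Vtn, and without input replicate 2 Vtn were lost.

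Some smooth muscle genes rose in bound RNA. Acta2, not called by the edgeR test as described, stood at 8.29 and 2.53 against 1.97 and 0.391 CPM in WT cortex (log2 fold change 2.19, adjusted p = 0.0711). It was called with DESeq2, with low counts kept and with the libraries taken as pairs (adjusted p from 0.0103 to 0.0358). Of 12 further smooth muscle genes tested, 3 rose and 0 fell in WT and 3 rose and 1 fell in stabilized cortex, and 2 rose and 0 fell in WT and 3 rose and 2 fell in stabilized choroid plexus, beside the shares of all genes given above. Their sums were 80.5 and 65.1 in bound against 39.6 and 43.7 TPM in input RNA of the WT cortex, and 31.5 and 38.5 against 13.9 and 14.9 TPM in the WT choroid plexus. Myh11, the smooth muscle myosin, and Smtn rose in bound RNA of both tissues and genotypes (log2 fold changes of Myh11 from 1.97 to 4.23 and of Smtn from 2.40 to 5.18). Among 15 further pericyte genes tested, Mcam alone rose in choroid plexus bound RNA (3.33 in WT, 3.41 in stabilized), where their sum was 31.0 and 50.2 in bound against 13.6 and 12.4 TPM in WT input. Another 2 fell in the stabilized choroid plexus. Of all genes, 8.67% rose in choroid plexus bound RNA of WT, and 9.35% rose and 8.48% fell in that of stabilized samples. In the cortex 0 pericyte genes rose and 2 fell in WT (7.46% and 4.18% of all genes). In the stabilized cortex 3 fell (12.2%). Microglial genes (10) summed to 3609 and 2509 TPM in WT cortex bound against 94.4 and 102 TPM in input RNA, and fibroblast genes to 30.8 and 23.5 against 39.3 and 44.2 TPM. Their part in the differences was not tested.

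Between the WT cortex and choroid plexus, 1 member was higher and 4 lower in cortex input RNA (26.2% and 26.5% of 16085 genes), and 0 were higher and 1 lower in bound RNA (15.8% and 13.9% of 16775). In input RNA, Pdgfrb (13.2 and 14.1 against 52.3 and 54.5 CPM), Abcc9 (5.70 and 5.47 against 36.7 and 30.6 CPM), Anpep and Acta2 were lower in the cortex. Cspg4 was higher there, 17.3 and 17.4 against 5.53 and 4.93 CPM, where oligodendrocyte precursor genes summed to 219 and 213 against 11.9 and 8.64 TPM. In bound RNA Abcc9 was lower in the cortex, 3.20 and 0.643 against 17.5 and 18.6 CPM (log2 fold change -3.15, adjusted p = 0.0120). In TPM the input differences of Pdgfrb and Abcc9 were smaller (ratios of cortex to choroid plexus of 0.686 and 0.527). Anpep and Acta2 overlapped between tissues on that scale, and the mean of Acta2 was higher in the cortex (0.699 against 0.519 TPM).

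Between genotypes, 0 members were called in bound RNA of the cortex (3.65% of genes rose and 2.67% fell) or choroid plexus (0.656% and 0.197%), or in input RNA of the cortex (8.44% and 3.38%) or choroid plexus (0.0995% and 0.00622%). In these 4 comparisons edgeR gave 1, 0, 3 and 5 members at an unadjusted p under 0.05, and DESeq2 called 0, 0, 1 and 1. Higd1b was too low to be tested in bound RNA. In the choroid plexus input all 10 members had positive log2 fold changes, with a median of 0.71 against -0.03 over all genes. In the same libraries fibroblast genes summed to 77.4 and 70.7 in stabilized against 46.9 and 53.0 TPM in WT and endothelial genes to 41.3 and 46.1 against 30.6 and 29.1 TPM. The part of these cells was not tested. Rgs5 stood at 342 and 243 CPM in stabilized against 106 and 127 CPM in WT (1.30 ± 0.19, adjusted p = 0.0868). It was called there with DESeq2 (adjusted p = 9.5e-10), with low counts kept (2.5e-11) and with only these groups fitted (0.0265). In the cortex input Vtn stood at 39.9 and 33.7 against 22.6 and 17.4 CPM, with an adjusted p of 0.00717 but a change under 2-fold (log2 fold change 0.96). Its protein-coding transcript lay the other way, at 1.96 and 1.62 TPM in stabilized against 9.50 and 7.91 TPM in WT samples, and made up 14.7% of the Vtn TPM against 100%.

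Across the 24 sorted libraries the K-ATP genes stood apart from most other members. The Pearson correlation of log2(TPM + 1) over the 45 pairs had a median of 0.678 and reached 0.907 for Vtn and Notch3. Kcnj8 correlated with Abcc9 (0.825) and Rgs5 (0.483) and with no other member above 0.133. Abcc9 correlated with Rgs5 (0.755) and with the remaining members from 0.153 (Acta2) to 0.441 (Higd1b). Among 14730 genes, those closest to the mean standardized profile of the 10 members included Myh11 (r = 0.874), Ldlrad3 (0.874), Cd248 (0.870), Slc16a1 (0.870), Atp13a5, Ttyh2, Afap1l2 and Cobll1 (0.854). These libraries share tissues and fractions, so the values describe a shared pattern over 12 groups. Across the 16 RiboTag libraries the median of the 45 pairs was 0.204, and the genes closest to the mean of the 5 members abundant enough there were Gpsm2 (0.757), Cd63 (0.733), Serp1, Manf, Polr2k, Fam210b, Tpt1-ps3, Dcn, Lpl and Odc1 (0.683).

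ATAC-seq of GFP-positive cells gave 25684 to 60243 peaks per library after the filter of the study (fold enrichment over 2 and -log10 q over 2). A peak within 1000 bp of an annotated start was present in both libraries for 0 of 10 members in WT and in stabilized cerebellum, where 50.4% and 53.7% of 22028 protein-coding genes had one. In WT and stabilized anterior pituitary 3 and 3 members had one (57.6% and 58.1%), and in the posterior pituitary 0 and 1 (50.8% and 54%). Pdgfrb, Rgs5, Cspg4, Anpep and Higd1b had none in any of the 12 libraries. In each group the share of members with a peak was below that of all genes.

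The K-ATP genes were marked in the anterior pituitary, where Kcnj8 RNA was highest. At the start of Kcnj8 the 4 anterior pituitary libraries held a peak with a fold enrichment of 9.20 and 10.3 in WT and 9.35 and 10.6 in stabilized cells. None was found in the 4 cerebellar libraries, 1 of 2 WT posterior pituitary libraries had a peak of 3.52, and both stabilized ones had a peak (5.65 and 4.57). Abcc9 had a peak over its start in the 4 anterior pituitary libraries (5.94 and 9.27 in WT, 5.82 and 4.83 in stabilized) and in none of the other 8, a pattern shared by 0.704% of protein-coding genes. The covered bases are those in capitals in the sequences above.

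Further peaks lay around the pair. In each anterior pituitary library a peak about 12 kb downstream of the Kcnj8 start, beyond the end of the gene, had a fold enrichment of 12.1 and 13.6 in WT and 14.7 and 15.4 in stabilized cells, higher than at either start. Another lay before the start of Abcc9, with 9.91 and 14.1 in WT and 12.5 and 12.8 in stabilized cells, and 1 WT and 1 stabilized posterior pituitary library had a peak there (3.52 and 3.40). The downstream peak was also called in both stabilized posterior pituitary libraries (3.47 and 3.79) and in neither WT one, and no peak was called over the pair in the cerebellum. Cerebellar GFP-positive cells held Kcnj8 and Abcc9 RNA at 14.2 to 20.8 TPM in WT without a peak there. The WT posterior pituitary lists were shorter (26402 and 25684 peaks) than the stabilized ones (36358 and 51666). Cerebellar lists held 31797 and 29163 peaks in WT and 43413 and 40751 in stabilized cells, and anterior pituitary lists 45518 to 60243. Whether list length decided where weak peaks were called was not tested, here or at the other members.

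**Figure D5:**
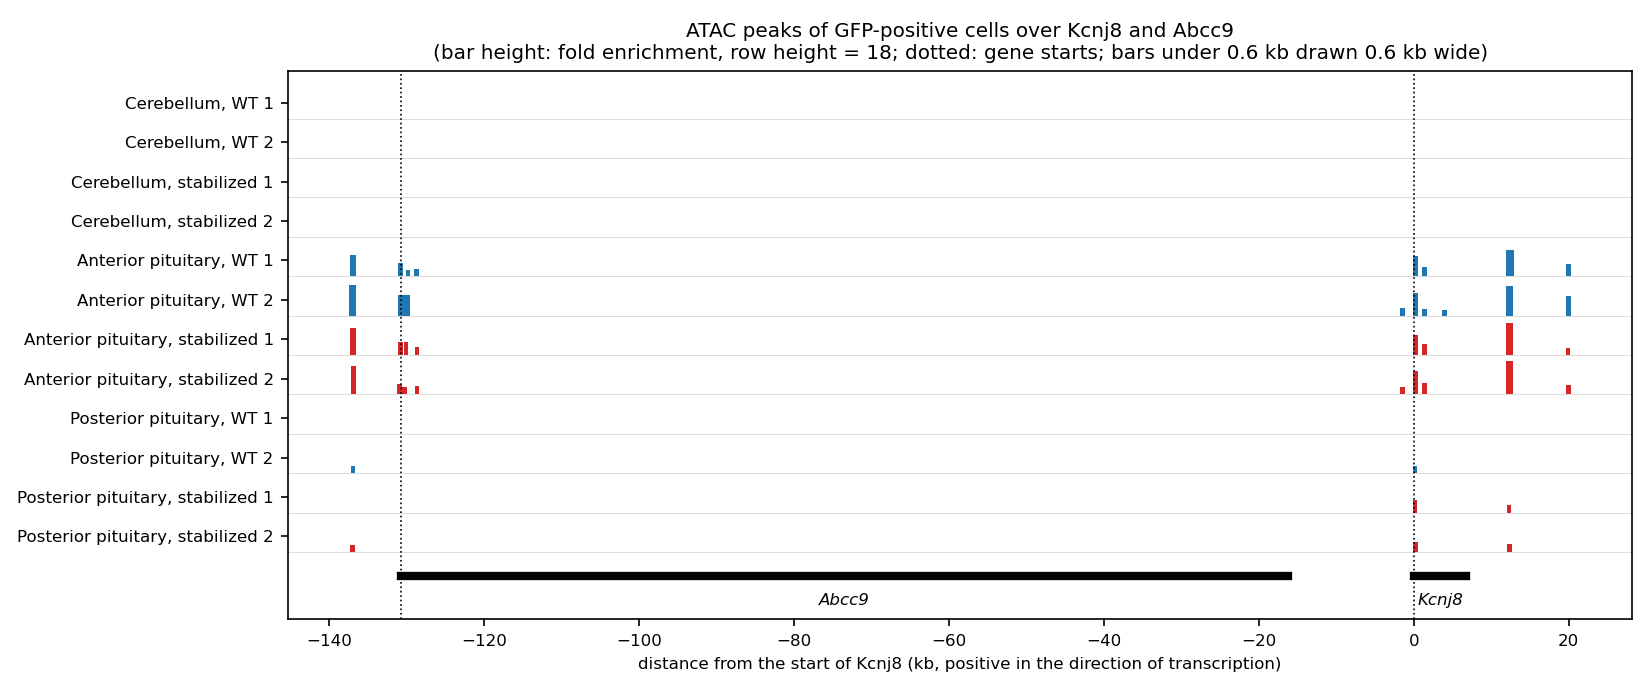
ATAC peaks in 12 libraries of GFP-positive cells around Kcnj8 and Abcc9, by distance in kb from the Kcnj8 start in the direction of transcription. Each row is 1 library, each bar a peak with its height as fold enrichment (a full row is 18), blue WT and red stabilized; the anterior pituitary rows hold peaks at both gene starts, the cerebellar rows none.

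Rgs5 combined high RNA with few peaks. At 548 and 488 TPM in WT cerebellar GFP-positive cells, it had no peak within 10 kb of the gene in 10 of 12 libraries, and the nearest peak in the WT cerebellum lay 123522 and 123726 bp from its start. In each stabilized cerebellar library 1 peak was called inside the gene, 29783 and 29754 bp from the start, with a fold enrichment of 4.54 and 4.14. Notch3 had a peak at its start in both stabilized anterior pituitary libraries (3.41 and 3.90) and in no other, and Acta2 in 1 stabilized cerebellar library (3.23). The window of Vtn was reached in 3 anterior pituitary libraries by a peak whose summit lay 20 to 65 bp from the start of its neighbour Sarm1.

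Some members carry limits of annotation. Only 5.91% of the Vtn TPM in WT cerebellar GFP-positive cells (24.2 and 12.1 TPM) and 29.2% of the Cspg4 TPM came from protein-coding transcripts, the rest from transcripts such as those with a retained intron. Over the 20 groups the coding share of Vtn lay between 0% and 100%, so that its levels mix transcript classes that differ between groups. Abcc9 and Notch3 overlap antisense genes by 11868 and 21024 bp and Anpep a gene on its own strand by 1279 bp. Whether the libraries kept strand is not stated, so reads in these stretches are uncertain.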

How the data were processed

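RNA-seq libraries were made with NuGEN Ovation V2 kits and sequenced single-end for 75 cycles. The authors estimated transcript abundance with Salmon 0.10.2 and deposited, for each library, an expected count and a TPM value (abundance scaled for length and depth) per transcript. For ATAC-seq the authors mapped reads to mm10 with Bowtie2 2.3.2, ran MACS2 2.1.1.20160309 on every library separately, and deposited each peak with its fold enrichment and its −log10 q. MACS2 fold enrichment over 2 and −log10 q over 2 were required, as in the study. Picard, deepTools and kallisto 0.44.0 are also named in the submitters' processing notes.

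Transcript values were added up per gene by the GENCODE M21 annotation (GRCm38), and at most 0.385% of reads were on unmatched transcripts. Rounded counts were tested with edgeR 4.0.16 (quasi-likelihood F test, TMM, filterByExpr, 1 coefficient per group, Benjamini-Hochberg adjustment over all genes tested). Fraction comparisons were fitted over all 24 sorted or 16 RiboTag libraries, genotype and tissue comparisons within 1 fraction. A call is an adjusted p under 0.05 and a change of at least 2-fold, and SE is the log2 fold change over the square root of F. The fit of the GFP-positive libraries was tested on simulated counts, for stabilized against WT anterior pituitary cells. The other fits were not tested in this way. Alternatives were DESeq2 1.42.0, RLE normalization, no filter, a length offset, only the compared groups, a replicate block and 1 within each preparation (same-numbered fractions). Each library was also left out in turn, which gave 216 results over comparisons and libraries left out. A summed level without Kcnj8 was an alternative chosen after seeing the data. Intervals of count ratios are exact at 95% and cover counting error only, and a group at 0 was set to 3 counts.

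The members and gene lists were chosen with earlier results of these data known. Among the genes whose profile is most like the members', some are not reported here. All 10 members are named, and of each other list at most the 3 called genes of largest change (5 for the mural and signal lists). R 4.3.3 and Python 3.11.15 were used.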

Additional observations from a re-analysis of the deposited data

Results flagged for a closer look

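Between tissues, the genotype effect (stabilized minus WT, log2) differed for Pdgfrb, Rgs5 and Notch3 in GFP-positive cells by the test of the difference itself (edgeR, adjusted over all genes). For Pdgfrb the cerebellar effect minus the anterior pituitary effect was -3.70 (SE 0.69, adjusted p = 0.0362, up to 0.104 over the alternatives), and for Rgs5 it was -1.89 (SE 0.35, adjusted p = 0.0312, up to 0.0961). Pdgfrb was lower in both stabilized than in both WT replicates in the cerebellum and higher in the anterior pituitary. In the cerebellar libraries fibroblast genes summed to 5.38 and 0.115 in stabilized against 26.8 and 16.3 TPM in WT, and their part was not tested. The anterior minus the posterior pituitary effect was 4.83 for Pdgfrb (SE 0.71, adjusted p = 0.0173, up to 0.0699) and 2.19 for Rgs5 (SE 0.35, adjusted p = 0.0290, up to 0.245). Without the library with the conflicting label these 4 differences were -3.57, -1.94, 4.69 and 2.23. For Notch3 the cerebellar minus the posterior pituitary effect was -2.70 (SE 0.51, adjusted p = 0.0282, up to 0.152), with posterior pituitary levels under 1 TPM. In input RNA the Rgs5 effect in the cortex minus that in the choroid plexus was -1.87 (SE 0.27, adjusted p = 0.00629, up to 0.0351), with 45.4 and 39.8 against 74.9 and 59.5 CPM in the cortex and 342 and 243 against 106 and 127 CPM in the choroid plexus. In TPM, Rgs5 had a mean of 3.75 against 13.5 in the cortex and 24.3 against 9.04 in the choroid plexus. The composition of the cortex input libraries moved with genotype: the gene Gm23935 took 31.0% and 33.1% of TPM in stabilized samples, whereas the most abundant gene in WT, mt-Atp8, took 13.2% and 16.3%. There the summed levels in stabilized against WT samples were 846 and 1011 against 2828 and 3165 TPM for neurons, 656 and 616 against 2763 and 2201 TPM for oligodendrocytes, 24.2 and 24.3 against 94.4 and 102 TPM for microglia and 19.6 and 20.2 against 55.8 and 44.4 TPM for ECs. Their part in the Rgs5 difference was not tested.

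Between fractions, the effect in GFP-positive minus that in GFP-negative cells was -4.56 for Kcnj8 in the cerebellum (SE 0.92, adjusted p = 0.0334, up to 0.120), with 5.17 and 7.90 against 14.2 and 14.6 TPM in GFP-positive and 14.4 and 6.64 against 2.13 and 0.752 TPM in GFP-negative cells. In the posterior pituitary it was -7.15 for Pdgfrb (SE 1.05, adjusted p = 0.00235, up to 0.149), -3.91 for Rgs5 (SE 0.57, adjusted p = 0.00235, up to 0.339), -6.96 for Kcnj8 (SE 1.25, adjusted p = 0.0130, up to 0.0901) and -3.83 for Abcc9 (SE 0.82, adjusted p = 0.0425, up to 1). In TPM Abcc9 overlapped between genotypes in GFP-negative cells (1.70 and 0.349 against 2.64 and 0.371). The Kcnj8 value rests on a single read in WT GFP-negative cells and is no bound. Single libraries ended several of these calls. Between cerebellum and anterior pituitary, Pdgfrb was lost without anterior WT replicate 1, and Rgs5 without either anterior WT replicate or stabilized cerebellar replicate 2. Between the lobes, Rgs5 was lost without anterior WT replicate 1 or stabilized posterior replicate 2. Notch3 was lost without any 1 of 5 libraries, Abcc9 without any 1 of 5 and cerebellar Kcnj8 without WT GFP-negative replicate 2.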

How the results depend on the processing

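Member counts are given as reported and then under the alternative, and the cause of a move was not tested. The shares of all genes in this report are those of the edgeR test as described. Counts under the alternatives have no such share beside them, so a move is not a result about the members. With DESeq2, the count of called members moved between fractions, WT anterior pituitary 4 to 7, stabilized posterior pituitary 1 to 2, WT cortex 0 to 3. By DESeq2 it moved between genotypes, anterior pituitary GFP-positive 1 to 2, cerebellum GFP-negative 0 to 2, anterior pituitary GFP-negative 0 to 2, posterior pituitary GFP-negative 3 to 5, cortex input 0 to 1, choroid plexus input 0 to 1. By DESeq2 it moved between WT tissues, GFP-positive cerebellum against anterior pituitary 5 to 9, GFP-positive cerebellum against posterior pituitary 4 to 9, GFP-negative anterior pituitary against posterior pituitary 2 to 6, bound cortex against choroid plexus 1 to 2. By DESeq2 it moved for genotype effects compared between tissues, GFP-positive cerebellum against posterior pituitary 1 to 2, GFP-negative cerebellum against anterior pituitary 0 to 1, GFP-negative cerebellum against posterior pituitary 0 to 3, GFP-negative anterior pituitary against posterior pituitary 0 to 2. By DESeq2 it moved for genotype effects compared between fractions, cerebellum 1 to 2. With RLE normalization, the count of called members moved between fractions, stabilized posterior pituitary 1 to 2. With low counts kept, the count of called members moved between fractions, WT cerebellum 3 to 5, WT anterior pituitary 4 to 7, stabilized posterior pituitary 1 to 3, WT cortex 0 to 2, WT choroid plexus 1 to 3. Unfiltered, it moved between genotypes, anterior pituitary GFP-positive 1 to 4, posterior pituitary GFP-positive 2 to 5, cerebellum GFP-negative 0 to 1, anterior pituitary GFP-negative 0 to 2, posterior pituitary GFP-negative 3 to 5, cortex input 0 to 1, choroid plexus input 0 to 1. Unfiltered, it moved between WT tissues, GFP-positive cerebellum against anterior pituitary 5 to 9, GFP-positive cerebellum against posterior pituitary 4 to 9, GFP-positive anterior pituitary against posterior pituitary 3 to 5, GFP-negative cerebellum against anterior pituitary 2 to 4, GFP-negative anterior pituitary against posterior pituitary 2 to 7, bound cortex against choroid plexus 1 to 2. Unfiltered, it moved for genotype effects compared between tissues, GFP-positive cerebellum against posterior pituitary 1 to 2, GFP-positive anterior pituitary against posterior pituitary 2 to 4, GFP-negative cerebellum against anterior pituitary 0 to 1, GFP-negative cerebellum against posterior pituitary 0 to 3, GFP-negative anterior pituitary against posterior pituitary 0 to 2, bound cortex against choroid plexus 0 to 1. Unfiltered, it moved for genotype effects compared between fractions, cerebellum 1 to 2, anterior pituitary 0 to 3. With a transcript length offset, the count of called members moved between fractions, WT anterior pituitary 4 to 2, stabilized cortex 2 to 1. Length-offset, it moved between genotypes, anterior pituitary GFP-positive 1 to 0, posterior pituitary GFP-positive 2 to 1, posterior pituitary GFP-negative 3 to 0, cortex input 0 to 1. Length-offset, it moved between WT tissues, GFP-positive anterior pituitary against posterior pituitary 3 to 1, GFP-negative cerebellum against anterior pituitary 2 to 1. Length-offset, it moved for genotype effects compared between tissues, GFP-positive cerebellum against anterior pituitary 2 to 0, GFP-positive cerebellum against posterior pituitary 1 to 0, GFP-positive anterior pituitary against posterior pituitary 2 to 1, input cortex against choroid plexus 1 to 2. Length-offset, it moved for genotype effects compared between fractions, cerebellum 1 to 0, posterior pituitary 4 to 2. When only the groups compared were fitted, the count of called members moved between fractions, WT cerebellum 3 to 5, stabilized posterior pituitary 1 to 2. Fitted alone, it moved between genotypes, posterior pituitary GFP-positive 2 to 0, posterior pituitary GFP-negative 3 to 0, choroid plexus input 0 to 1. Fitted alone, it moved between WT tissues, GFP-positive anterior pituitary against posterior pituitary 3 to 1, GFP-negative cerebellum against posterior pituitary 7 to 1, GFP-negative anterior pituitary against posterior pituitary 2 to 0. Fitted alone, it moved for genotype effects compared between tissues, GFP-positive cerebellum against anterior pituitary 2 to 1, GFP-positive anterior pituitary against posterior pituitary 2 to 0, GFP-negative cerebellum against anterior pituitary 0 to 1. Fitted alone, it moved for genotype effects compared between fractions, cerebellum 1 to 0, posterior pituitary 4 to 0. With the replicate number as a block, the count of called members moved between fractions, stabilized posterior pituitary 1 to 2, WT cortex 0 to 2. Blocked, it moved between WT tissues, GFP-negative anterior pituitary against posterior pituitary 2 to 5, bound cortex against choroid plexus 1 to 2. Blocked, it moved for genotype effects compared between tissues, GFP-negative cerebellum against posterior pituitary 0 to 2. With the block taken within each preparation, the count of called members moved between fractions, stabilized posterior pituitary 1 to 2, WT cortex 0 to 3, WT choroid plexus 1 to 2. Leaving out each library in turn gave ranges of called members as follows: between fractions, stabilized posterior pituitary 0 to 2, WT cortex 0 to 2, stabilized cortex 1 to 2, WT choroid plexus 0 to 2, stabilized choroid plexus 1 to 4. The ranges were, between genotypes, cerebellum GFP-positive 0 to 1, anterior pituitary GFP-positive 0 to 3, posterior pituitary GFP-positive 1 to 4, anterior pituitary GFP-negative 0 to 1, cortex bound 0 to 1, cortex input 0 to 2. The ranges were, between WT tissues, GFP-positive cerebellum against anterior pituitary 5 to 8, GFP-positive anterior pituitary against posterior pituitary 2 to 5, GFP-negative cerebellum against anterior pituitary 1 to 2, GFP-negative anterior pituitary against posterior pituitary 2 to 4, bound cortex against choroid plexus 1 to 2. The ranges were, for genotype effects compared between tissues, GFP-positive cerebellum against anterior pituitary 0 to 3, GFP-positive cerebellum against posterior pituitary 0 to 3, GFP-positive anterior pituitary against posterior pituitary 1 to 4, GFP-negative cerebellum against anterior pituitary 0 to 1, GFP-negative cerebellum against posterior pituitary 0 to 3, GFP-negative anterior pituitary against posterior pituitary 0 to 1, bound cortex against choroid plexus 0 to 1, input cortex against choroid plexus 1 to 3. The ranges were, for genotype effects compared between fractions, cerebellum 0 to 1, anterior pituitary 0 to 1, cortex 0 to 1. Over the counts of called members and of members with a peak, 352 alternative values stayed within 1.5 times the reported count and 138 moved. Among the called fold changes of single members and the summed levels, 690 alternative values stayed on their side, 94 fell short of the threshold and none reversed. Another 40 were summed levels that moved on other scales, which kept the order cerebellum, anterior and posterior pituitary in WT GFP-positive cells. Without Kcnj8, an alternative chosen after seeing the data, 2 summed levels moved, those of anterior pituitary GFP-positive cells (71.3 TPM in WT, 163 TPM in stabilized), and in WT the anterior lobe then stood below the posterior one (111 TPM). Within a fraction the replicate numbers do not pair the samples: correlations of same-numbered deviations lay between -0.288 and 0.148. Between the fractions of 1 tissue and genotype they lay between 0.00117 and 0.128 in sorted cells and between 0.0837 and 0.254 in RiboTag samples, whose input was an aliquot of the homogenate, so the counts with the block taken within each preparation also stand in the report where they moved. With 2 libraries a group, a lone remaining library was assumed to vary like the other groups. Low counts limit Higd1b and Acta2 in the pituitary, where a group held 0 or 1 reads.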
